A study of Mus musculus with 64 samples.

Results

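The 9 genes described here are the FOXO transcription factors Foxo1, Foxo3 and Foxo4, the F-box and RING ubiquitin ligase genes Fbxo32, Trim63, Fbxo30 and Fbxo31, the transcription factor Klf15 and the translation repressor Eif4ebp1. They were chosen by name from a table of 55401 genes, and all 9 were among the 15241 genes that passed the filter on low counts. RNA was sequenced from the gastrocnemius muscle of C57BL/6JBomTac mice of both sexes, aged 12 to 18 weeks. All animals carried homozygous floxed Hif1a alleles with loxP sites around exon 2. HIF1α KO mice also carried 1 copy of a Cre transgene under the human α-skeletal actin promoter, which is active in muscle fibres, and their Cre-negative littermates served as controls, named fl/fl. Backcrossing had run for 2 to 9 generations. Mice of each genotype either ran on a treadmill for 60 min, reaching 16 m/min at an incline of 5%, or stayed sedentary on a mock treadmill, at ZT3 (early rest phase) or ZT15 (early active phase), where ZT is the number of hours after lights on, and tissue was taken 3 h later. Each of the 8 combinations of genotype, time and treatment had 8 mice, 4 of each sex, except that 1 library of the exercised HIF1α KO group at ZT3 held only 382 counts, none of them in the 9 genes, and was left out. In the other 63 libraries the total ranged from 2359780 to 40377963 counts, with a median of 16236352, and no gene of the 9 had fewer than 33 counts in any of them.

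FOXO factors sit at the end of the insulin and IGF1 pathway. AKT phosphorylates them when insulin or growth factors are present, which keeps them out of the nucleus, and when AKT activity is low they enter it and switch on genes for protein breakdown and autophagy. Fbxo32 (atrogin-1) and Trim63 (MuRF1) are the best known of these targets in muscle, and both rise in fasting, denervation and glucocorticoid excess. Glucocorticoids also raise Klf15, which drives the breakdown of branched-chain amino acids. Eif4ebp1 encodes 4E-BP1, which binds the cap-binding factor eIF4E and holds back translation until mTORC1 phosphorylates it. The question put to the data is how far the transcripts of this circuit differed with a bout of exercise, with the time of day and with the loss of HIF1α in muscle fibres.

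The genes lie on 7 chromosomes of GRCm38 (GENCODE M21), and all are protein-coding. Foxo1 is ENSMUSG00000044167.6 at chr3:52268336-52353221 on the plus strand, Foxo3 is ENSMUSG00000048756.11 at chr10:42181841-42276755 on the minus strand, and Foxo4 is ENSMUSG00000042903.8 at chrX:101254528-101260873 on the plus strand. Fbxo32 is ENSMUSG00000022358.7 at chr15:58175879-58214932 on the minus strand, and Trim63 is ENSMUSG00000028834.13 at chr4:134315120-134329629 on the plus strand. Fbxo30 is ENSMUSG00000047648.13 at chr10:11281330-11298052 on the plus strand, and Fbxo31 is ENSMUSG00000052934.14 at chr8:121549440-121578806 on the minus strand. Klf15 is ENSMUSG00000030087.11 at chr6:90462576-90475238 on the plus strand, and Eif4ebp1 is ENSMUSG00000031490.6 at chr8:27260329-27276674 on the plus strand. An antisense gene, Gm20402, shares 674 exon bases with Foxo1 and another, Gm15943, shares 186 with Fbxo32. The sources used here do not say whether the counting used strand, so reads of each pair may not be separable, and neither antisense gene had enough counts to be tested.

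RefSeq promoter windows (GRCm38.p6, 250 bases before the start and 50 after) were at hand for 6 of the 9 genes. The stretches from base -250 to base -101 of Trim63 and Klf15 are printed for the FOXO and glucocorticoid letters in the former and the repeated E-box in the latter, with matches in this stretch in capitals. A single match in Fbxo31 is given without its sequence, and the last E-box of Klf15 lies outside the stretch printed. In the Trim63 window the letters TGTTCT and TGTTTAC follow each other directly.

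Trim63 (chr4:134314870-134315019, plus strand): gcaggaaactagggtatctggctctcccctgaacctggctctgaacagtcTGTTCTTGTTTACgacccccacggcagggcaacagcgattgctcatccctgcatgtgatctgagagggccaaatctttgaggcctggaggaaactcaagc

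Klf15 (chr6:90462326-90462475, plus strand): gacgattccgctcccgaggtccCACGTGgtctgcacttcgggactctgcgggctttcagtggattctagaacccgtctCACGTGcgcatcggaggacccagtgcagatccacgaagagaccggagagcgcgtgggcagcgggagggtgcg

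TGTTTAC, the FOXO core, was searched on both strands, as were the other motifs, and the Trim63 window was the only 1 of the 6 to hold it, on the gene's strand from base -194, while 3.65% of all 32851 promoter windows hold it. Directly upstream, from base -200, AGAACA, one arm of the glucocorticoid response element, was present on the other strand (TGTTCT on the gene's strand), and 19% of all windows hold it. The E-box CACGTG, which binds clock and other basic helix-loop-helix factors, occurred 3 times in the Klf15 window, from bases -228, -172 and -3, the last running over the start, and in no other of the 6. In all, 7.15% of the windows hold CACGTG. Its letters include ACGTG, the core of the hypoxia response element, which was also found on the other strand of the Fbxo31 window from base -193 and is held by 19.6% of all windows. Neither the D-box TTATGTAA (0.938% of windows) nor the nuclear receptor core AGGTCA of ROR elements (16.3% of windows) was in any of the 6. A match describes letters only and is no measure of binding.

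Per kilobase of exon, Trim63 was the most abundant of the 9 transcripts and Foxo1 the least. On the scale of CPM (a gene's counts scaled to a common library size) per kilobase of merged exons, Trim63 had a median of 114 over the 63 libraries (range 48.8 to 558) and Fbxo32 a median of 58.7 (range 18.8 to 167). Trim63 lay above Fbxo32 in 63 of 63 libraries, and Fbxo32 above Foxo4, the next, in 63 of 63 as well, although the ranges of neighbours overlapped throughout the order. Foxo4 (median 14.3 CPM per kilobase), Fbxo31 (12.1), Klf15 (11.3) and Eif4ebp1 (9.56) formed the middle of the order. There a gene lay above the next in 40 to 42 of 63 libraries only, and whether neighbours differed was not tested. Fbxo30 (4.95) and Foxo3 (4.40) were alike, with Fbxo30 the higher in 35 of 63 libraries. Foxo1 was last at 1.79 CPM per kilobase (range 0.480 to 4.13), below Foxo3 in 63 of 63. With the longest transcript as the length, the order of medians was the same, but Foxo4 lay above Fbxo31 in 29 of 63 libraries.

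**Figure D1:**
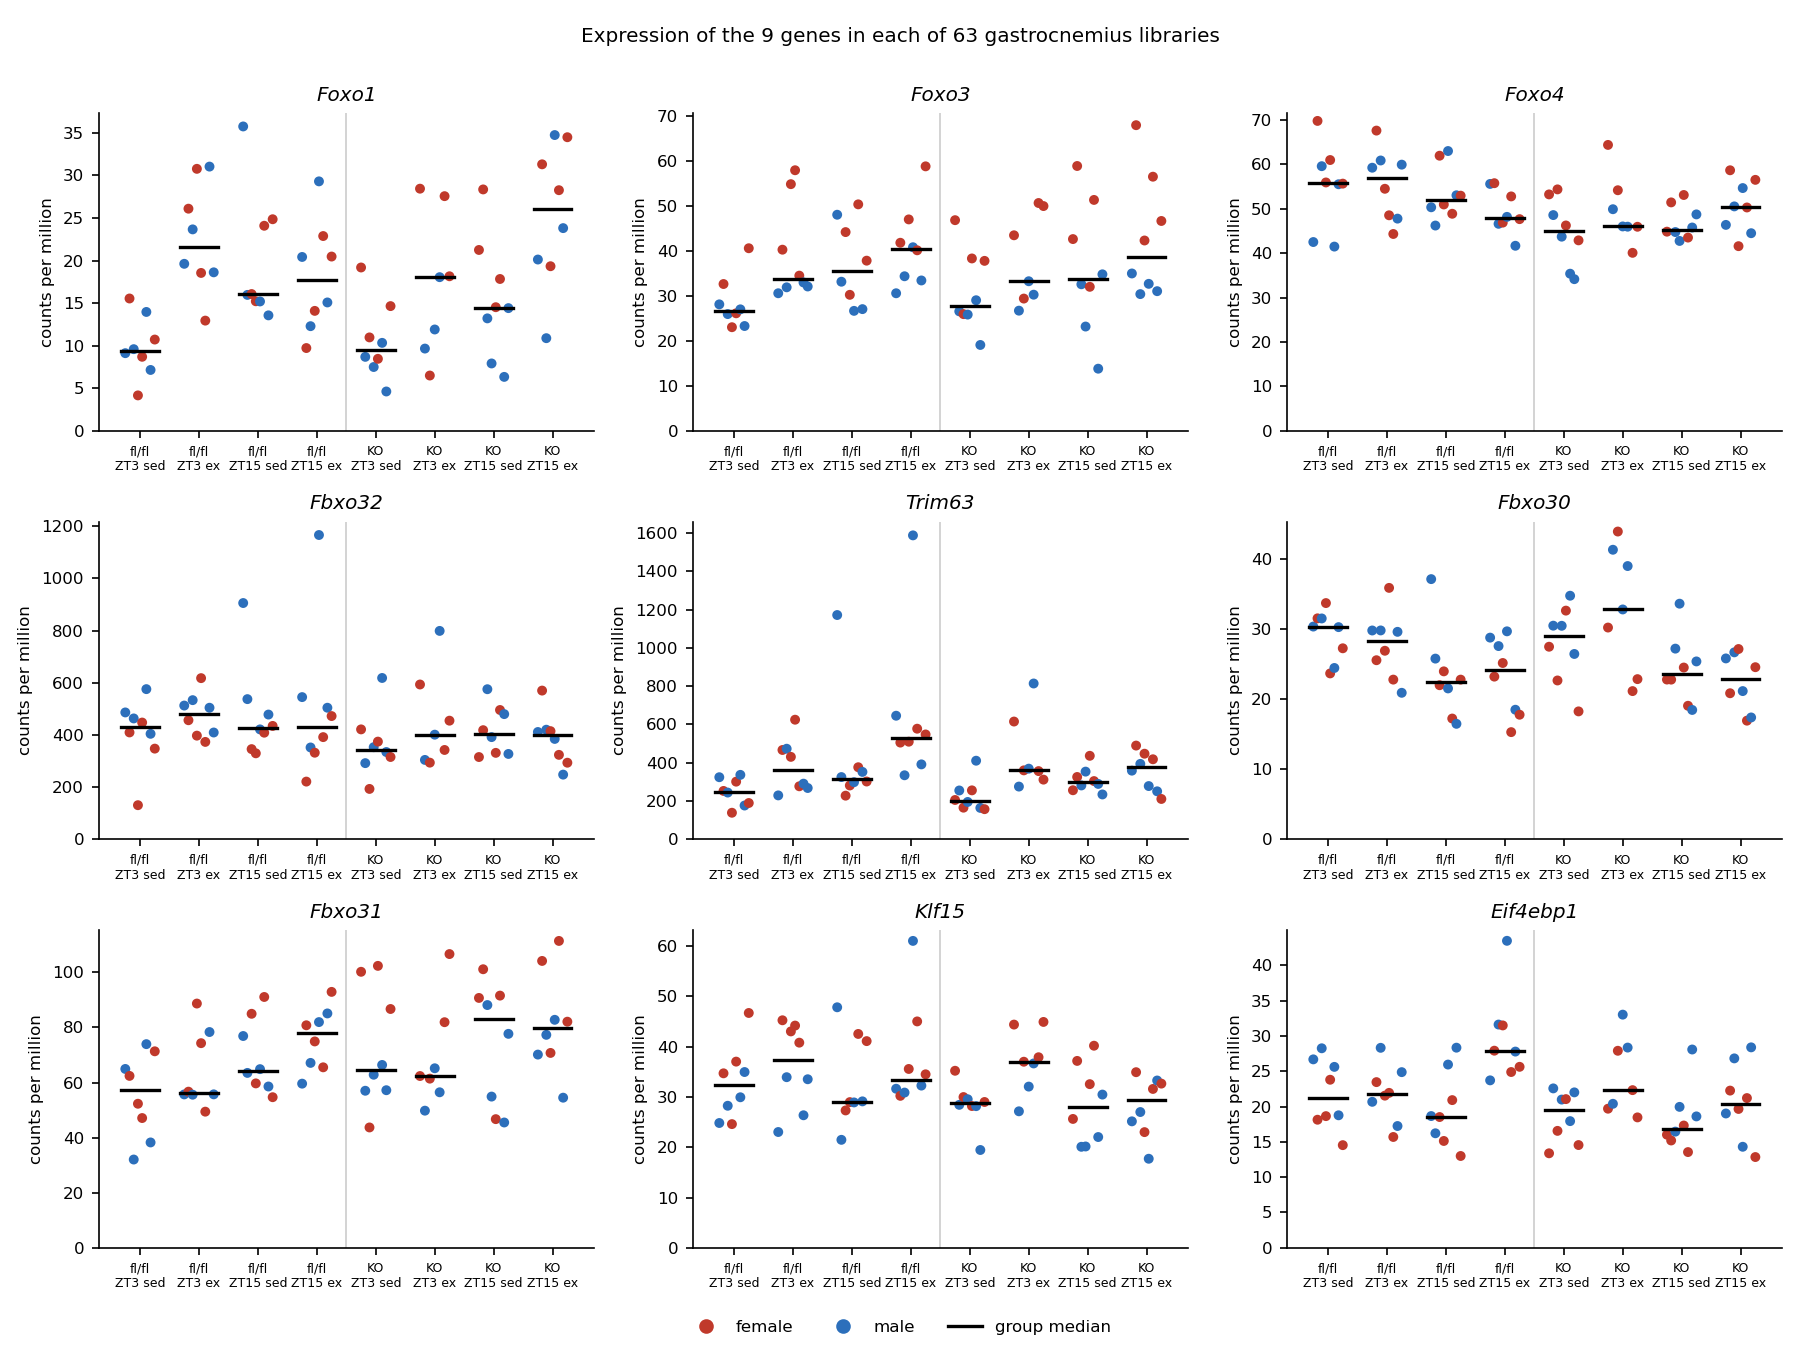
Each panel plots 1 gene, with the 8 groups on the x axis (fl/fl left of the grey line, HIF1α KO right of it) and CPM on a linear y axis that starts at 0. Points are libraries, red for females and blue for males, and bars are group medians. Foxo1 is lowest in both sedentary ZT3 groups, and single male libraries of the fl/fl ZT15 groups stand far above the rest in the Fbxo32 and Trim63 panels.

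Foxo1, Foxo3, Trim63 and Eif4ebp1 transcripts were higher after exercise, and none of the 9 was lower, by the quasi-likelihood test of edgeR, with p-values adjusted over all genes after Benjamini and Hochberg, as for every adjusted p given here. The comparison averaged the exercised minus sedentary difference over both genotypes and both times, and 433 of all genes tested, 2.84%, were called at an adjusted p under 0.1 (2.06% higher, 0.781% lower). Of the 9 genes, 4 were called, and the fitted change was positive for all 9. The median log2 fold change was 0.17 over the 9 genes and -0.0037 over all genes tested.

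Foxo1 varied most between mice of a group (residual SD 0.58 on the log2 scale, against 0.33 for the median gene and 0.19 for Foxo4). It had a lowest value of 4.16, a median of 13.8 and a highest value of 35.8 CPM in the 32 sedentary libraries, against 6.49, 20.1 and 34.7 CPM in the 31 exercised ones. The ranges overlapped almost fully, and the shift was in the middle of the distribution. The fitted log2 fold change was 0.63 (SE 0.14, adjusted p = 0.00478), a 1.54-fold rise. Foxo3 went from 13.8, 31.1 and 58.9 CPM (lowest, median and highest) in sedentary to 26.7, 35 and 68.0 CPM in exercised muscle, for a log2 difference of 0.27 (SE 0.075, adjusted p = 0.0391), a call lost without the sex term (0.28, adjusted p = 0.197). Foxo4, the X-linked member of the family, gave 34.1, 49.6 and 69.8 CPM in sedentary and 40.1, 49.9 and 67.6 CPM in exercised muscle, and its log2 fold change of 0.038 (95% confidence interval -0.057 to 0.13) did not pass. The fourth mammalian gene of the family, Foxo6, averaged 2.03 CPM and had a log2 fold change of -0.20 that did not pass either (adjusted p = 0.687).

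Trim63, which targets myofibrillar proteins such as myosin heavy chain, had 139, 281 and 1171 CPM (lowest, median and highest) in sedentary and 211, 394 and 1587 CPM in exercised libraries. The highest value of each set came from 1 mouse that stood far above its group. The fitted log2 change was 0.62 (SE 0.14, adjusted p = 0.00591), a 1.54-fold rise, and it was 0.71 without the high sedentary library (mouse 8) and 0.53 without the high exercised one (mouse 37), called in both cases. Its partner Fbxo32, the substrate receptor of an SCF ligase that acts on regulators of protein synthesis, gave 131, 409 and 906 CPM in sedentary and 221, 411 and 1167 CPM in exercised libraries, with medians that lay together. The log2 fold change of Fbxo32 was 0.13 (SE 0.11, 95% confidence interval -0.096 to 0.36, adjusted p = 0.763). Fbxo30, a ligase gene described as held down by BMP signalling, and Fbxo31, an F-box gene with roles in the cell cycle, did not pass, at 0.018 (95% confidence interval -0.12 to 0.16) and 0.10 (-0.063 to 0.26) on the log2 scale.

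Eif4ebp1 had 13, 18.6 and 28.3 CPM (lowest, median and highest) in sedentary and 12.9, 23.5 and 43.5 CPM in exercised libraries. The exercised median lay above the sedentary one while the ranges overlapped. Its log2 fold change of 0.31 (SE 0.069, adjusted p = 0.00417) had the smallest p of the 9 genes. Klf15 went from a median of 29.1 to 33.5 CPM, and its log2 fold change of 0.17 (95% confidence interval 0.027 to 0.32) did not pass after adjustment (adjusted p = 0.314).

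With each of the 63 libraries left out in turn, these 4 genes were called for exercise every time. Slow-fibre, muscle, blood, adipocyte, endothelial, macrophage, fibroblast and Schwann cell markers had no called gene in this comparison, and 1 of 3 satellite cell markers was lower. The 7 slow-fibre markers moved together, with log2 fold changes from 0.21 to 0.42 and a summed level of 346 to 3833 CPM in exercised against 354 to 1773 CPM in sedentary libraries, and with that level as a covariate 4 genes of the 9 were still called. Since whole muscle was sequenced, more RNA per fibre and a larger share of one kind of cell cannot be told apart.

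**Figure D2:**
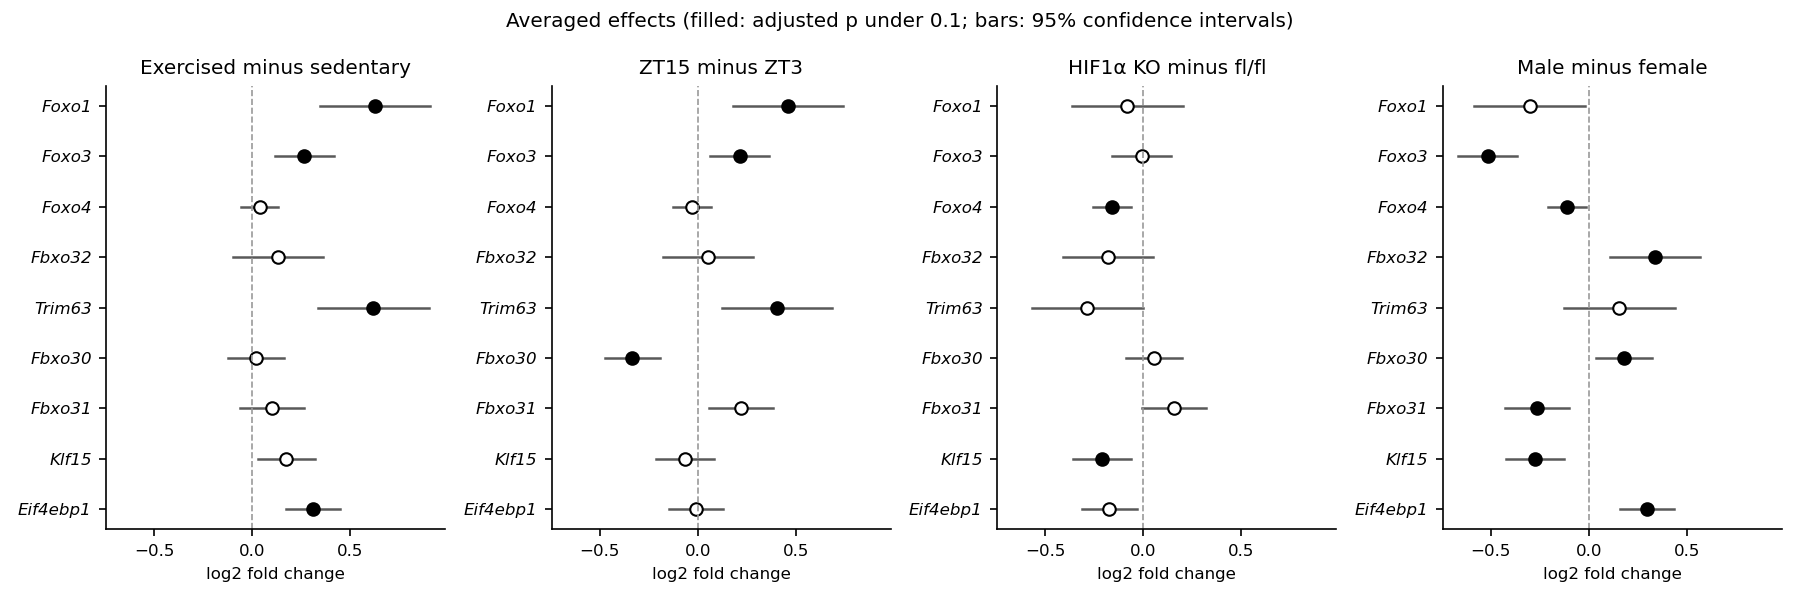
The x axis of each panel is the log2 fold change of the comparison named above it, and the y axis lists the 9 genes. Circles are estimates (filled at an adjusted p under 0.1) and lines are 95% confidence intervals. In the exercise panel Foxo1 (0.63) and Trim63 (0.62) lie farthest to the right, in the time panel Fbxo30 (-0.33) lies farthest to the left, and in the sex panel Foxo3 does (-0.52).

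Within each genotype and time, the exercise effect on Foxo1 passed in fl/fl mice at ZT3 alone. There, sedentary libraries had 4.16, 9.36 and 15.5 CPM (lowest, median and highest) and exercised ones 12.9, 21.6 and 31 CPM, so that 8 of 8 exercised libraries lay above the sedentary median. The fitted log2 change was 1.23 (SE 0.28, adjusted p = 0.039), a 2.35-fold rise, where 0.236% of all genes were called. It lost its call in 5 of the 63 fits that left out 1 library (without mice 13, 22, 38, 50 or 60, all of those 2 groups, at 1.11 to 1.2). At ZT15 the fl/fl mice had a Foxo1 difference of -0.14 (95% confidence interval -0.70 to 0.42), with 13.6, 16.0 and 35.8 CPM in sedentary and 9.72, 17.8 and 29.3 CPM in exercised libraries.

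In HIF1α KO mice, the exercise effect on Foxo1 was 0.69 (95% confidence interval 0.13 to 1.26) at ZT3 and 0.72 (0.16 to 1.27) at ZT15 on the log2 scale, neither of which passed after adjustment. Medians went from 9.51 to 18 CPM at ZT3 and from 14.5 to 26 CPM at ZT15. The 95% interval included 0 in 1 of the 4 strata and lay above it in 3, but the tests of the difference did not pass: the time by exercise term was -0.67 (SE 0.28, adjusted p = 0.9) and the term for genotype, time and exercise together 1.40 (SE 0.56, adjusted p = 0.295). None of the 15241 genes, 0%, was called by edgeR for any of the 4 interaction terms, and 306 to 2196 had an unadjusted p under 0.05. DESeq2 called none of the 9 for these terms.

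Trim63 had positive exercise effects in all 4 strata, at 0.66 and 0.62 in fl/fl mice (ZT3 and ZT15) and 0.99 and 0.20 in HIF1α KO mice on the log2 scale, none of which passed alone. In fl/fl mice at ZT15 the exercised libraries ran from 334 to 1587 CPM with a median of 529, and 8 of 8 lay above the sedentary median of 313 CPM. In HIF1α KO mice at ZT3 medians were 200 CPM sedentary and 360 CPM exercised, and 7 of 7 exercised libraries lay above the sedentary median. Eif4ebp1 read otherwise: its effect was 0.025 in fl/fl mice at ZT3 and 0.60 at ZT15 (adjusted p = 0.136), 0.41 in HIF1α KO mice at ZT3 and 0.20 at ZT15. In fl/fl mice at ZT15 the Eif4ebp1 medians were 18.6 CPM sedentary and 27.8 CPM exercised, with 8 of 8 exercised libraries above the sedentary median. The term for genotype, time and exercise together was -0.78 for Eif4ebp1 (SE 0.28, adjusted p = 0.269). Within strata, the share of all genes called for exercise was 0% in fl/fl mice at ZT15 (1406 genes had an unadjusted p under 0.05), 0.131% in HIF1α KO mice at ZT3 and 0.0591% at ZT15, and none of the 9 genes was called in those 3.

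**Figure D3:**
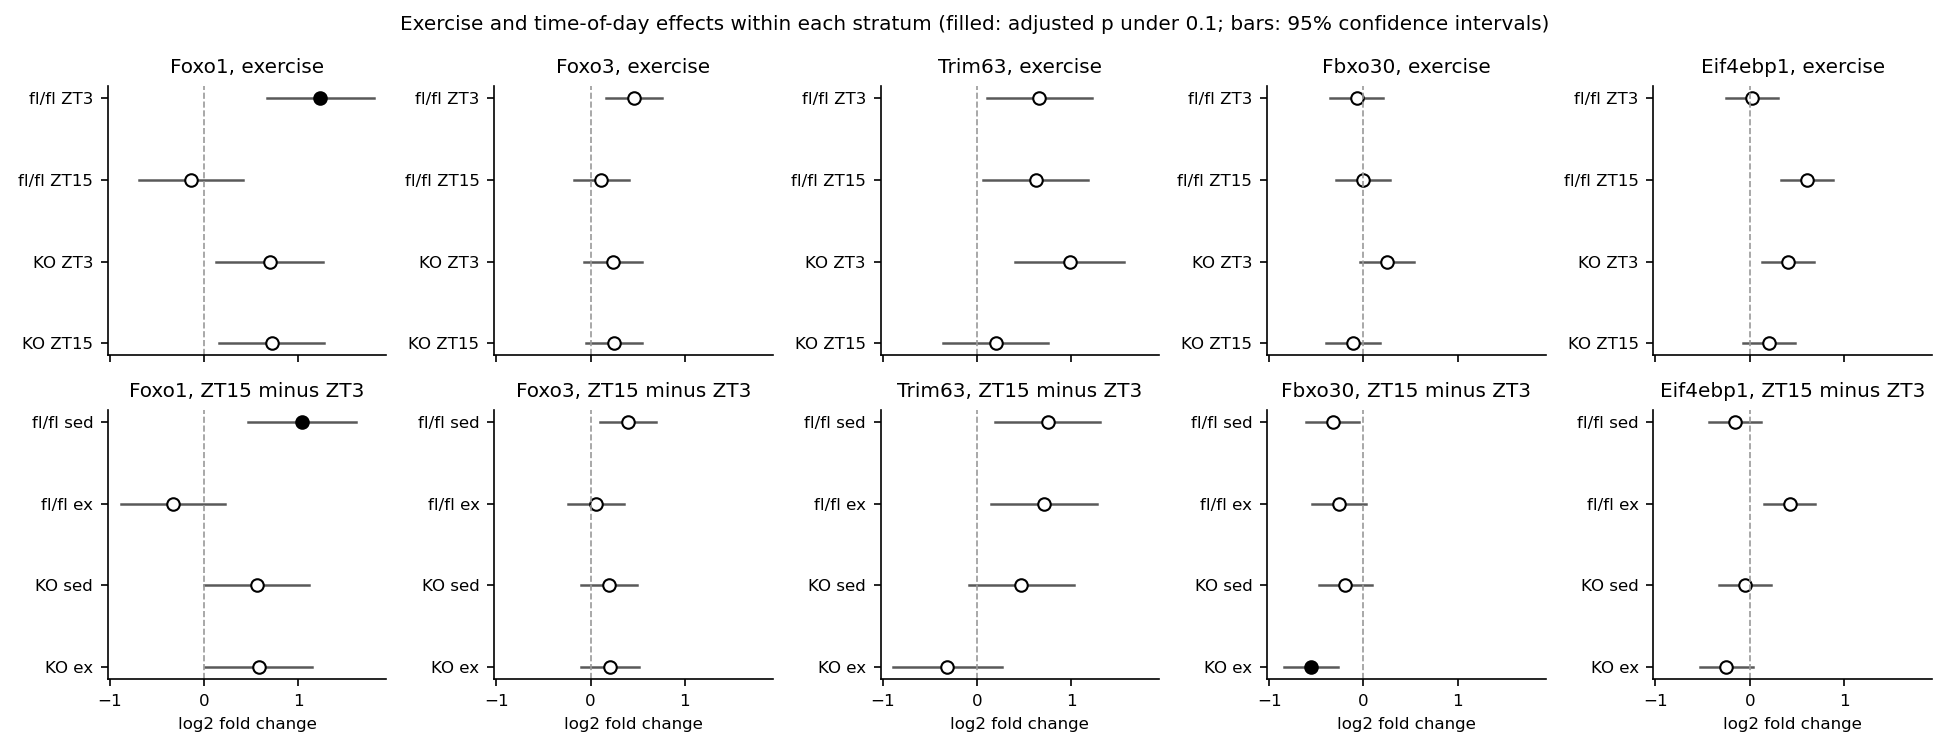
The upper row plots the exercise effect in each genotype and time and the lower row the ZT15 minus ZT3 difference in each genotype and treatment, as log2 fold changes with 95% confidence intervals (filled circles at an adjusted p under 0.1). Foxo1 is near 0 for exercise in fl/fl mice at ZT15 (-0.14) and at 1.23 at ZT3, while Fbxo30 lies below 0 in all 4 time comparisons.

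Between ZT3 and ZT15, averaged over genotype and treatment, Foxo1, Foxo3 and Trim63 were higher at ZT15 and Fbxo30 was lower. Of all genes, 8.02% were called (4.09% higher, 3.92% lower at ZT15), against 4 of the 9 here. The median log2 fold change was 0.054 over the 9 genes and -0.0034 over all genes tested. The time is that of the treatment, and tissue was taken 3 h after it.

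Fbxo30 had the smallest p of the 9 genes for time of day. It ran from 18.2 to 43.8 CPM (median 29.8) in the 31 libraries at ZT3 and from 15.3 to 37.1 CPM (median 23) in the 32 at ZT15. The ranges overlapped with the ZT15 median well down in the ZT3 range, and the fitted log2 change was -0.33 (SE 0.071, adjusted p = 0.00107), a fall to 0.794 of the ZT3 level. All 4 strata had a negative estimate, from -0.56 to -0.19. In exercised HIF1α KO mice, where it passed (-0.56, SE 0.15, adjusted p = 0.0659, 0.663% of all genes called), the 7 libraries at ZT3 had 21.1, 32.7 and 43.8 CPM and the 8 at ZT15 16.9, 22.8 and 27.1 CPM, and 8 of 8 at ZT15 lay below the ZT3 median. That call was lost in 7 of the 63 fits that left out 1 library, at -0.55 to -0.45, when mice 20, 23, 34, 47, 51, 59 or 9 were left out, all of those 2 groups.

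Foxo1 had 4.16, 12.9 and 31 CPM (lowest, median and highest) at ZT3 and 6.34, 18.6 and 35.8 CPM at ZT15, for a log2 difference of 0.46 (SE 0.14, adjusted p = 0.0368). Within strata it passed in sedentary fl/fl mice (1.04, SE 0.28, adjusted p = 0.0621, 1.88% of all genes called), where 8 of 8 libraries at ZT15 lay above the ZT3 median of 9.36 CPM. This contrast and the exercise contrast at ZT3 share the same 8 sedentary fl/fl libraries. The call was lost in 6 of the 63 fits that left out 1 library (mice 8, 22, 38, 49, 60 or 62), at 0.82 to 1.04. The lowest of these came without mouse 8, whose Foxo1 of 35.8 CPM was the highest of its group (adjusted p = 0.194 without it). In exercised fl/fl mice the estimate was -0.33 (95% confidence interval -0.89 to 0.22), and in HIF1α KO mice 0.56 sedentary and 0.58 exercised, none of these called.

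Foxo3 differed by 0.21 on the log2 scale between the times (SE 0.075, adjusted p = 0.0818), with medians of 31.9 CPM at ZT3 and 36.4 CPM at ZT15 and ranges that overlapped. Trim63 differed by 0.40 (SE 0.14, adjusted p = 0.0802), with 139, 277 and 814 CPM (lowest, median and highest) at ZT3 and 211, 353 and 1587 CPM at ZT15. By stratum the Trim63 estimate was 0.75 in sedentary and 0.71 in exercised fl/fl mice. It was 0.47 in sedentary HIF1α KO mice and, in the other direction, -0.31 in exercised ones, none of these called. The genotype by time term of Trim63 was -0.65 (SE 0.28, adjusted p = 0.981). The averaged calls of Foxo3 and Trim63 both stood near the threshold. That of Foxo3 was lost in 19 fits with 1 library left out (mice 6, 8, 9, 11, 14, 15, 20, 22, 23, 30, 37, 38, 42, 45, 48, 49, 51, 52 and 64, at 0.18 to 0.21). That of Trim63 was lost in 17 (mice 2, 8, 9, 20, 22, 23, 28, 29, 30, 32, 37, 45, 50, 51, 57, 58 and 60, at 0.30 to 0.40), with 0.30 without mouse 8 and 0.33 without mouse 37. With the slow-fibre level as a covariate, or without the 3 libraries under 5000000 counts, Foxo1 and Fbxo30 were called and Foxo3 and Trim63 were not. Fbxo31 gave 0.22 (95% confidence interval 0.058 to 0.39, adjusted p = 0.106), which passed in 18 of the fits that left out 1 library (0.23 to 0.25). Foxo4, Fbxo32, Klf15 and Eif4ebp1 gave estimates between -0.065 and 0.054. In exercised fl/fl mice (1.18% of all genes called) and in sedentary HIF1α KO mice (0.479%) none of the 9 genes passed for time.

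HIF1α KO muscle had less Foxo4 and Klf15 than fl/fl muscle. Of all genes, 8.26% were called for genotype (4.68% higher and 3.58% lower in HIF1α KO), and 2 of the 9 were, both lower. The median log2 fold change was -0.16 over the 9 genes and -0.0028 over all genes tested. Hif1a itself was not used as a check, since only exon 2 is deleted and the counts cover the whole gene.

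Foxo4 had 41.5, 53 and 69.8 CPM (lowest, median and highest) in the 32 fl/fl libraries and 34.1, 46.2 and 64.4 CPM in the 31 HIF1α KO libraries. The ranges overlapped, and in sedentary mice at ZT3 8 of 8 HIF1α KO libraries lay below the fl/fl median of 55.8 CPM. The fitted log2 change was -0.16 (SE 0.048, adjusted p = 0.0368), a level of 0.895 of that in fl/fl muscle, and it was called in every fit that left out 1 library. By stratum the estimate was -0.30 in sedentary and -0.18 in exercised mice at ZT3, and -0.18 and 0.027 at ZT15.

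Klf15 had 21.5, 33.7 and 61 CPM in fl/fl and 17.7, 30.0 and 44.9 CPM in HIF1α KO libraries, for a log2 difference of -0.21 (SE 0.074, adjusted p = 0.0866). The call was lost in 24 of the 63 fits that left out 1 library, at -0.22 to -0.17 (mice 1, 4, 6, 8, 13, 15, 20, 23, 24, 25, 27, 28, 33, 37, 39, 43, 45, 47, 49, 54, 57, 60, 62 and 63). Among them were the fits without mouse 37, the fl/fl library with the highest Klf15 (-0.17), and without mouse 8 (-0.18). It was also lost with a covariate for the block of 16 consecutive mouse numbers (-0.17, adjusted p = 0.177), where the 4 blocks differed in their median share of mitochondrial rRNA counts (1.84% to 6.55%). By stratum the estimate was largest in exercised mice at ZT15 (-0.43, adjusted p = 0.356) and near 0 in exercised mice at ZT3 (0.021).

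Eif4ebp1 was called for genotype in exercised mice at ZT15 alone (-0.51, SE 0.14, adjusted p = 0.093, 0.4% of all genes called). There the fl/fl libraries had 23.7, 27.8 and 43.5 CPM (lowest, median and highest) and the HIF1α KO libraries 12.9, 20.4 and 28.4 CPM, and 7 of 8 of the latter lay below the fl/fl median. This call was lost in 14 of the 63 fits that left out 1 library (mice 4, 17, 19, 26, 27, 31, 37, 39, 47, 51, 52, 53, 54 and 61), at -0.54 to -0.43, the smallest without mouse 37. It was also lost with the block covariate (-0.44, adjusted p = 0.249), without the sex term (-0.51, adjusted p = 0.314), with all 64 libraries (-0.51, adjusted p = 0.102) and with only the groups compared (-0.51, adjusted p = 0.296). Averaged over strata, Eif4ebp1 was at -0.17 for genotype (adjusted p = 0.139) and passed in 5 fits, without mice 22, 33, 43, 59 or 60 (-0.20 to -0.18). The averaged effect also passed with the block covariate (-0.20, adjusted p = 0.0802). It did so too with only genes of at least 10 counts in every library (-0.19, adjusted p = 0.0767). In exercised mice at ZT15, Trim63 was at 529 CPM (median) in fl/fl and 376 CPM in HIF1α KO muscle. There 8 of 8 HIF1α KO libraries lay below the fl/fl median, and the log2 fold change of Trim63, -0.82 (SE 0.28, adjusted p = 0.356), did not pass. None of the 9 genes passed in sedentary mice at ZT3 (0.4% of all genes called) or ZT15 (0.0459%), or in exercised mice at ZT3 (1.43%). Beside these genotype results stand lower Schwann cell markers, with 3 of 4 called, lower in HIF1α KO (summed level 33.1 to 154 CPM against 37.9 to 177 CPM in fl/fl), 1 of 5 macrophage and 1 of 5 fibroblast markers lower, and 1 of 3 satellite cell markers higher. Their part in the genotype results was not tested. Slow-fibre, muscle, blood, adipocyte and endothelial markers had no called gene.

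Males and females, balanced within groups by design, differed in 7 of the 9 genes. Of all genes 25.1% were called (13.3% higher and 11.8% lower in males). Foxo3, Foxo4, Fbxo31 and Klf15 were lower in males, and Fbxo32, Fbxo30 and Eif4ebp1 were higher in males.

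Foxo3 had 23.1, 42.5 and 68.0 CPM (lowest, median and highest) in the 32 female libraries and 13.8, 30.6 and 48.1 CPM in the 31 male ones. The ranges overlapped with the male median well down in the female range, and the log2 fold change of male minus female was -0.52 (SE 0.075, adjusted p = 1.61e-07). Klf15 differed by -0.27 (SE 0.074, adjusted p = 0.00446), with medians of 35.4 CPM in females and 28.9 CPM in males, and Fbxo31 by -0.26 (SE 0.082, adjusted p = 0.0147), with medians of 77.9 CPM in females and 63.5 CPM in males. Foxo4 differed by -0.11 (SE 0.048, adjusted p = 0.0942), a call that 28 of the 63 fits with 1 library left out did not keep, at -0.11 to -0.099 (mice 3, 4, 5, 6, 7, 9, 11, 14, 15, 16, 17, 19, 23, 25, 26, 28, 29, 30, 34, 35, 38, 39, 45, 46, 50, 54, 59 and 61).

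In the other direction, Fbxo32 had 131, 383 and 618 CPM in females and 248, 463 and 1167 CPM in males, and differed by 0.34 on the log2 scale (SE 0.11, adjusted p = 0.0282). Eif4ebp1 differed by 0.30 (SE 0.069, adjusted p = 0.000885), with medians of 19.2 CPM in females and 23.7 CPM in males. Fbxo30 differed by 0.18 (SE 0.071, adjusted p = 0.0677), lost without mouse 8 or mouse 39 (0.15 to 0.16). Trim63 (0.15, 95% confidence interval -0.13 to 0.44) and Foxo1 (-0.30, adjusted p = 0.133) did not pass, though Foxo1 did in 7 fits with 1 library left out (mice 8, 19, 22, 23, 37, 47 or 54, at -0.36 to -0.33). Whether Fbxo32 and Trim63 differed from each other was not tested.

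Marker genes of slow fibres differed between the sexes as well. All 7 were lower in males, with log2 fold changes from -1.03 to -0.53 and a summed level of 346 to 1773 CPM (median 784) in males against 624 to 3833 CPM (median 1350) in females. With that level as a covariate Fbxo32 (0.19, adjusted p = 0.473) and Fbxo30 (0.071, adjusted p = 0.705) were no longer called for sex, and Foxo1 was (-0.49, adjusted p = 0.0651). Adipocyte markers were lower in males in 5 of 6 cases (summed level 147 to 520 CPM in males, 178 to 599 CPM in females), Schwann cell markers in 4 of 4 and fibroblast markers in 3 of 5. In males 3 of 5 blood, 3 of 7 muscle fibre and 1 of 5 endothelial markers were higher, and macrophage and satellite cell markers had no called gene. Their part in the sex differences was not tested.

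No difference between the sexes in their responses was detected. In a fit with its own terms for sex in every group, a model chosen after the sex differences were seen, none of the 9 genes passed for a difference between males and females in the time, exercise or genotype effect. Over all genes edgeR called 0, 0 and 6, and 547, 405 and 1600 had an unadjusted p under 0.05. The smallest p was for Foxo1 and genotype: HIF1α KO minus fl/fl was -0.47 in males and 0.28 in females on the log2 scale, a difference of -0.74 (SE 0.28, adjusted p = 0.462). Male fl/fl libraries had a Foxo1 median of 15.6 CPM and male HIF1α KO libraries 10.9 CPM, and in females the medians were 15.8 and 19.3 CPM. The exercise effect on Trim63 was 0.44 in males, with the 2 high male libraries among them, and 0.80 in females (difference -0.36, SE 0.27). It passed in females (adjusted p = 0.0191) and not in males. So did the exercise effect on Eif4ebp1, at 0.39 in females (adjusted p = 0.0327) and 0.23 in males.

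Across the 63 libraries, which share the 8 groups, the sexes and the sequencing depth of each sample, correlations between the 9 genes varied widely. Pearson's r of log2 CPM was 0.74 between Foxo3 and Fbxo31, 0.71 between Foxo1 and Foxo3, and 0.67 between Fbxo32 and Trim63. After the group and sex means were taken out these were 0.72, 0.67 and 0.75. With the block of mouse numbers taken out as well they were 0.66, 0.54 and 0.74. On log2 CPM, Foxo1 with Trim63 gave 0.48 and with Fbxo32 0.40, which were 0.38 and 0.54 after group and sex. Foxo3 with Trim63 gave 0.38 and with Fbxo32 0.17, which were 0.36 and 0.50 after group and sex. On log2 CPM, the highest r of Foxo4 with any of the others was 0.27, with Klf15. Fbxo30 was the only ligase of the 4 with a negative r against Foxo1 (-0.31) and Foxo3 (-0.23), which were -0.14 and 0.071 after group and sex.

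**Figure D4:**
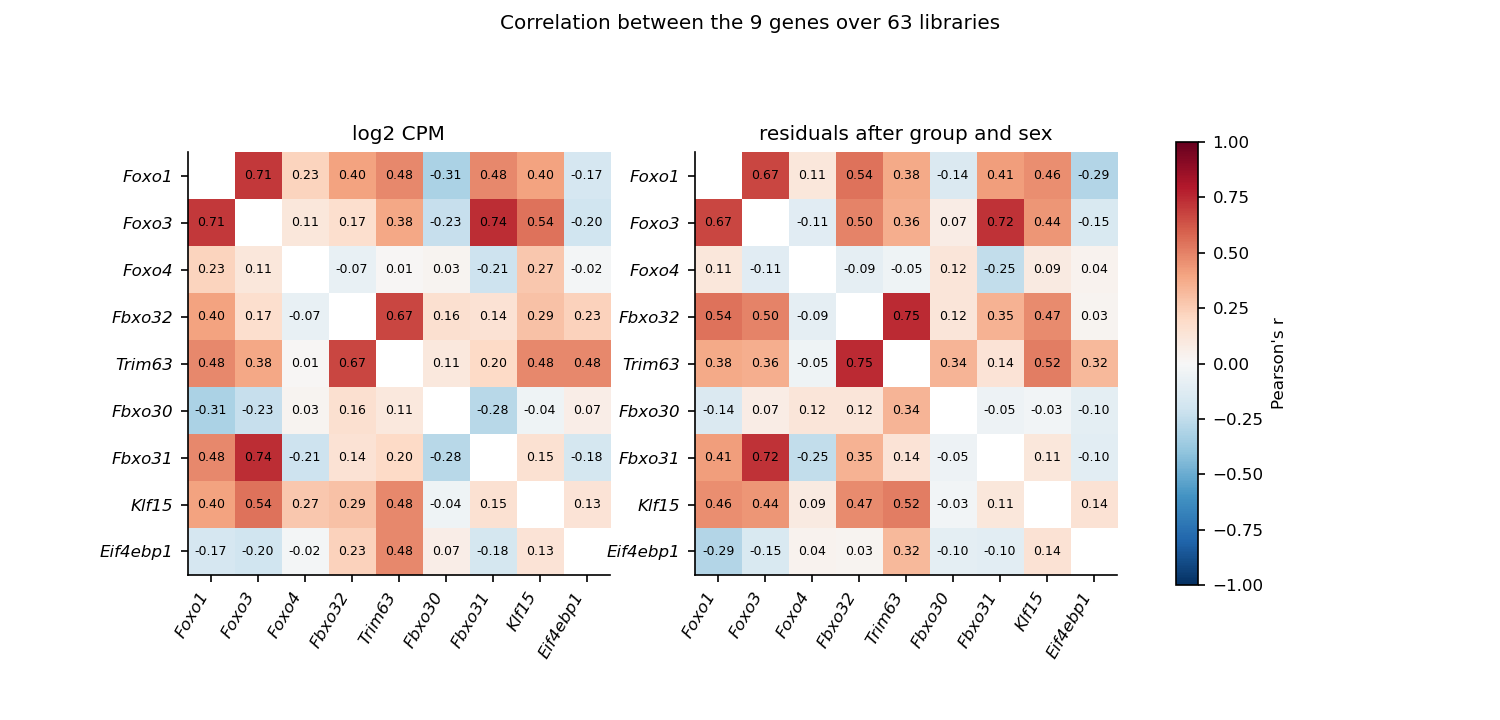
Both panels show Pearson's r for each pair of the 9 genes over 63 libraries, on the left for log2 CPM and on the right for residuals after group and sex, with red for positive and blue for negative values. The Fbxo32 and Trim63 cell (0.67 and 0.75) and the Foxo3 and Fbxo31 cell (0.74 and 0.72) are among the darkest in both.

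Among all genes tested, the 3 with the highest r to Foxo1 were Zmiz1 (0.87), Zbtb16 (0.87), a zinc finger gene of the glucocorticoid list used here, and Aff1 (0.84). For Foxo3 they were Gramd1b (0.81), Mn1 (0.80) and Fry (0.78), and for Foxo4 Xpo7 (0.57), Mxi1 (0.55) and Edc3 (0.55). Trim63 was most like Tmem140 (0.73), Sdc4 (0.73) and Ppp1r15a (0.69), and Fbxo32 most like Cnksr1 (0.79), Samd4 (0.75) and Sorbs3 (0.73). The nearest to Fbxo30 were Zfand5 (0.82), Fnip1 (0.74) and Tmem106b (0.73), and to Fbxo31 Obsl1 (0.83), Polrmt (0.82) and Aldh2 (0.81). Klf15 was nearest to Fam214a (0.74), Plin4 (0.73) and Klhl38 (0.65), and Eif4ebp1 to Mknk2 (0.70), Rgcc (0.63) and Dusp14 (0.63). Mknk2 encodes a kinase of eIF4E, the factor that 4E-BP1 binds. With group and sex taken out, 2 of these 3 neighbours stayed for Foxo1, Foxo4 and Klf15, 1 for each of Fbxo32, Trim63, Fbxo30 and Fbxo31, and 0 for Foxo3 and Eif4ebp1. With the block of mouse numbers taken out as well, 0 stayed for Klf15, Fbxo32 and Fbxo31, and the others kept the same number.

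The other genes of the circuit are given by lists, some of which share genes (among them Pik3r1, Glul, Sesn1, Gadd45a, Sgk1 and Cdkn1a). A shared gene is counted in each of its lists. Of all genes tested, 2.84% were called for exercise, 8.02% for time of day and 8.26% for genotype. A count near these shares is no result about a list, and no list was tested as a set. Of 25 further muscle ubiquitin ligases, 0 were called for exercise, and Trim63 was the only 1 of the 29 in the list. For time of day, 3 of these 25 were higher and 2 lower at ZT15. Asb2 (0.40, adjusted p = 0.000233), a ligase gene linked to loss of muscle mass, was among the former, and Fbxo40 (-0.20, adjusted p = 9.41e-05), which targets IRS1, and Nedd4 (-0.088, adjusted p = 0.0305) were the latter. For genotype, Mdm2 (0.17, adjusted p = 0.0628), the p53 ligase, and Stub1 (0.12, adjusted p = 0.0949) were higher in HIF1α KO.

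Among 23 FOXO target genes other than the ligases, 3 were higher and 1 lower after exercise, with a median log2 fold change of 0.069. Ppargc1a, the coactivator of mitochondrial biogenesis, rose by 1.22 (SE 0.11, adjusted p = 5.05e-12), and Gadd45a (0.28) and the stress gene Sesn1 (0.21) rose as well, while Gadd45b, a DNA damage response gene, fell by 0.67 (adjusted p = 7.58e-05). At ZT15, 2 of the 23 were higher and 3 lower. The thioredoxin inhibitor Txnip was lower (-0.56, adjusted p = 1.26e-07), as was Angptl4 (-0.83, adjusted p = 0.0235), an inhibitor of lipoprotein lipase. Pdk4 was lower too (-0.52, adjusted p = 0.0614). The repressor Bcl6 (0.43, adjusted p = 0.00304) and Cdkn1a (0.64, adjusted p = 0.0255) were higher. For genotype, 4 of 23 were higher in HIF1α KO and 0 lower: Ccng1 (0.28), the myokine Il15 (0.37), Sod2 (0.10) and Gadd45a (0.23). The median of the list was -0.072 for time of day and, against the direction of its calls, -0.074 for genotype.

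The glucocorticoid list had the most calls for time of day and for exercise. Of its 17 genes other than Klf15, 8 were higher and 2 lower at ZT15, with a median of 0.24 for the whole list. Pik3r1, the regulatory subunit of PI3 kinase, rose by 0.53 (SE 0.063, adjusted p = 2.75e-09), Glul, which makes glutamine, by 0.55 (adjusted p = 8.61e-09) and Fkbp5, a chaperone of the glucocorticoid receptor, by 0.47 (adjusted p = 2.14e-05). With exercise 5 of 17 rose and 0 fell, with Mt1 at 1.24 (adjusted p = 0.000233), Mt2 at 1.23 (adjusted p = 0.00451) and Fkbp5 at 0.42 (adjusted p = 0.000352). The metallothioneins Mt1 and Mt2 also answer to metals and stress. For genotype only Tsc22d3 (0.23, adjusted p = 0.0798), the leucine zipper gene GILZ, was higher, and 0 of the 17 were lower, while the median of the list was -0.12. Klf15 belongs to the same list and did not pass for time or exercise.

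In the insulin and IGF1 to AKT list of 19 genes, upstream of FOXO, 4 were higher and 1 lower at ZT15. Pik3r1 and the kinase Sgk1 (0.22, adjusted p = 0.0852) were higher, and Pik3ca, the catalytic subunit, was lower (-0.18, adjusted p = 0.00547). After exercise Pik3r1 was the only 1 called (0.22, adjusted p = 0.0365), and for genotype Igf1 was, lower in HIF1α KO (-0.30, SE 0.085, adjusted p = 0.0283). Of 30 autophagy and lysosome genes, Gabarapl1 (0.27, adjusted p = 0.00478) was the only 1 called for exercise, where 2.84% of all genes were called. At ZT15 Tfeb (0.18) was higher and 3 were lower, among them Atg14 (-0.34) and Pik3c3 (-0.14), both parts of the lipid kinase complex that starts autophagosomes. For genotype Lamp2 (-0.13, adjusted p = 0.0824) was lower.

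Around Klf15, 20 genes of amino acid catabolism were tested. With exercise Glul was the only 1 to rise, and at ZT15 4 were higher, among them Glul, Dbt (0.19, adjusted p = 0.000737), the branched-chain acyltransferase, and the transporter Slc7a8 (0.44, adjusted p = 0.0065), and 1 was lower. In HIF1α KO 3 were higher while Klf15 was lower: Gpt2 (0.22, adjusted p = 0.00784), Bckdk (0.15, adjusted p = 0.0289) and Hibch (0.17, adjusted p = 0.0473). Around Eif4ebp1, of 20 genes of mTORC1 and translation control 1 rose and 1 fell with exercise, Sesn1 and Ddit4l (-0.44, adjusted p = 0.00635), an inhibitor of mTORC1. Deptor (0.25, adjusted p = 0.0303), another mTORC1 inhibitor, was higher at ZT15, and Atf4 (0.15, adjusted p = 0.0357) was higher in HIF1α KO.

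Myostatin and SMAD signalling feeds into the same ligases, and Fbxo30 is part of its list. Of its 19 other genes, 4 were higher and 1 lower at ZT15. The receptor gene Acvr1b (0.43, adjusted p = 3.83e-07), the inhibitory Smad7 (0.60, adjusted p = 5.81e-06) and Smad1 (0.23, adjusted p = 0.0219), which carries the BMP signal, were among the former. Smad3 (0.29, adjusted p = 0.000602) was the only 1 called for exercise. For genotype Gdf11 (-0.48, adjusted p = 3.25e-05) and Mstn, the gene of myostatin (-0.22, adjusted p = 0.0736), were lower in HIF1α KO and 0 were higher. Of 11 denervation and disuse markers tested, 3 were higher at ZT15, led by Myod1 (1.49, SE 0.13, adjusted p = 1.74e-13), a myogenic factor under clock control, with Myog (0.67) and Hdac4 (0.38). Gadd45a was higher with exercise (0.28). For genotype 1 of the 11 was higher in HIF1α KO, Gadd45a (0.23, adjusted p = 0.0758), and 1 lower, Dach2 (-0.85, adjusted p = 0.00134).

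**Figure D5:**
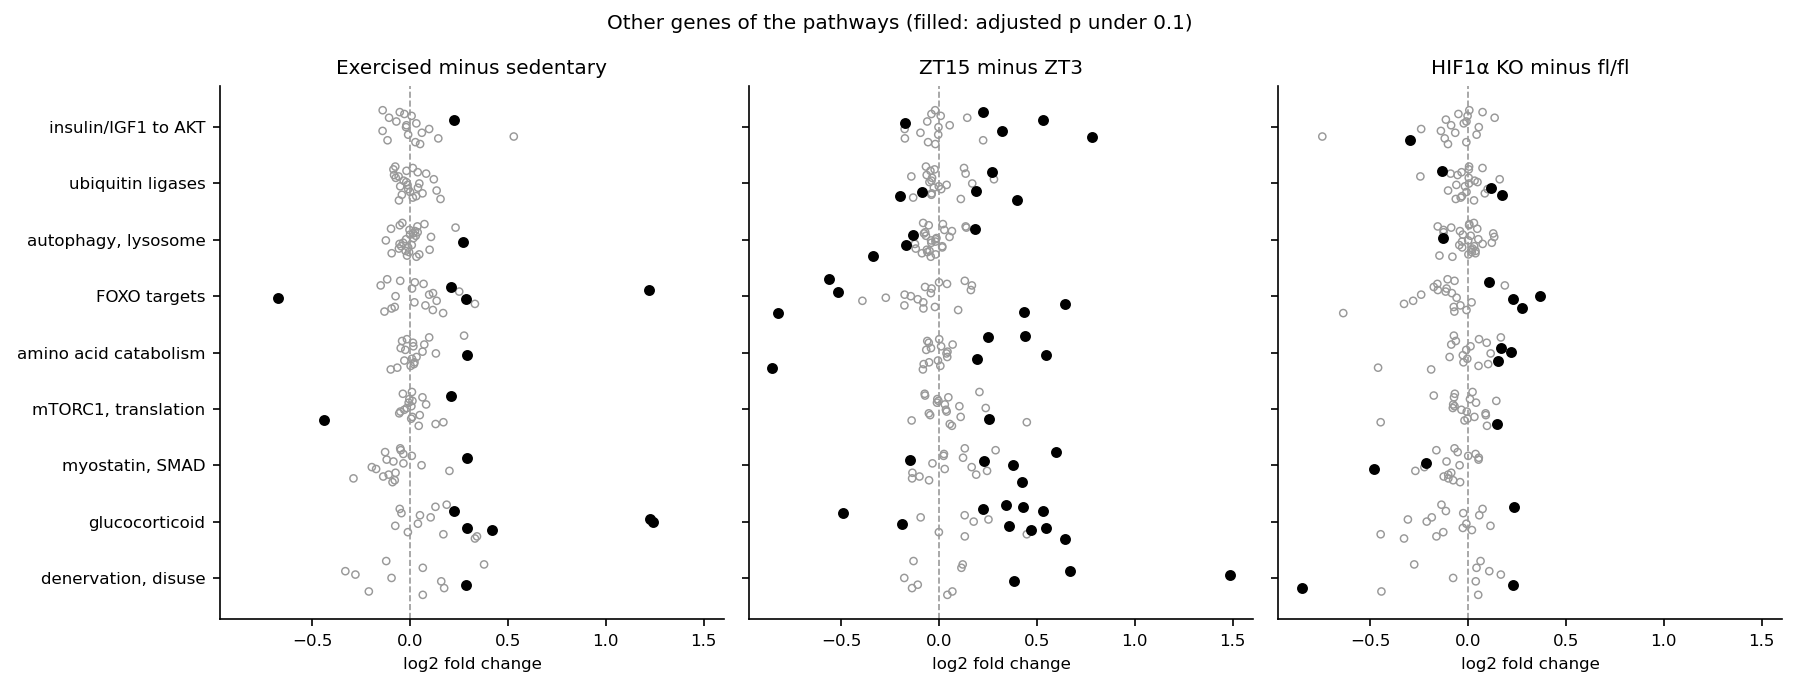
Each row is a gene list, without the 9 genes, and each point a gene, plotted by its log2 fold change for exercise, time of day or genotype (filled at an adjusted p under 0.1). In the exercise panel the row of ubiquitin ligases has no filled point and the glucocorticoid row has 5, and in the time panel the latter has 10. Of all genes tested, 2.84% were called for exercise and 8.02% for time of day.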

How the data were processed

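Per the labels and the study's methods, poly-A RNA was made into stranded libraries and read as 52-bp pairs, STAR mapped them to mm10, and the raw counts per gene that the authors deposited came from featureCounts. Versions, annotation release and strand setting are not given in the sources used here. From these counts, 63 of 64 libraries were used (1 had 382 counts). Symbols and positions came from GENCODE M21, promoters from RefSeq. Genes were filtered with filterByExpr (minimum count 10), scaled by TMM and fitted with edgeR 4.0.16 in R 4.3.3 (quasi-likelihood, robust, one term per group plus sex), with Benjamini-Hochberg adjustment over 15241 genes and calls at an adjusted p under 0.1. The scripts were tested on simulated data. Log2 CPM for correlations used a prior count of 2. Alternatives included DESeq2 1.42.0. No pair of libraries in a group agreed within sampling noise (lowest chi-square per degree of freedom 3.36 over 217 pairs). Libraries are separate mice. The precision follows the depth, and 3 libraries held under 5000000 counts. From each list, at most 3 genes per comparison, those with the smallest p among the called, are named. Of the FOXO targets, all called genes are named. For each of the 9 genes, the 3 with the highest r are named. The 9 genes and the lists were chosen with earlier results of these data known. One result of the ligase list is not reported here.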

Additional observations from a re-analysis of the deposited data

Results flagged for a closer look

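Of 72 groups of libraries (9 genes in 8 groups of 7 or 8), 9 held a value whose gap to its neighbour was too large a share of the group's range for Dixon's 95% limit. Chance flags about 1 in 20 groups if values are normally distributed, but CPM was used here without a log scale. The groups are also not independent, since the 9 genes were read in the same mice. Of the 9 flags, 6 came from a pair of male fl/fl mice at ZT15.

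Mouse 8, sedentary, had the highest Trim63 (1171 CPM, group median 313), Fbxo32 (906 CPM, group median 428) and Fbxo30 (37.1 CPM, group median 22.4) of its group. Mouse 37, exercised, had the highest Trim63 (1587 CPM, group median 529), Fbxo32 (1167 CPM, group median 432) and Eif4ebp1 (43.5 CPM, group median 27.8) of its group. Their totals were 9785700 and 16236400 counts.

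In HIF1α KO mice, mouse 35 (sedentary, ZT3) was highest for Trim63 at 410 CPM (group median 200), mouse 45 of the same group was lowest for Klf15 at 19.5 CPM (group median 28.7), and mouse 43 (sedentary, ZT15) was highest for Eif4ebp1 at 28.1 CPM (group median 16.9).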

How the results depend on the processing

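The 4 exercise calls and the time calls of Foxo1 and Fbxo30 were kept with every library left out in turn. The number of the 9 genes called then ranged from 4 to 4 for exercise, 2 to 5 for time, 1 to 3 for genotype and 5 to 8 for sex. With males only, 0 were called for exercise and 0 for time, and with females only 2 and 1, where the number of mice is smaller by construction. For genotype, 1 was called at an adjusted p under 0.05, with males only, without a filter or without the sex term, and 0 with females only. For time, 2 were called at an adjusted p under 0.05, without a filter, with the slow-fibre covariate or without the libraries under 5000000 counts. Within strata, the 1 exercise call became 2 with DESeq2 and 0 with either sex alone or without a filter. The 1 genotype call became 0 at an adjusted p under 0.05, with all 64 libraries, with either sex alone, with the block covariate, without a filter, without the sex term, with only the groups compared and without the libraries under 5000000 counts. The 2 time calls became 0 at an adjusted p under 0.05 or with either sex alone, and 1 without a filter, without the sex term, with only the groups compared or with the slow-fibre covariate. The cause was not tested.

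Changes of sign were all in estimates that were not called. With females only they were Fbxo32 (0.013 for genotype, -0.00099 for time), Foxo1 and Foxo3 for genotype (0.28 and 0.14) and Foxo4 for exercise (-0.024). With males only they were Foxo4 (0.011) and Klf15 (0.0099) for time. With the mouse number block as a covariate Foxo1 and Foxo3 were at 0.013 and 0.023 for genotype, without the sex term Foxo3 was at 0.023, and with the slow-fibre covariate Trim63 was at -0.11 for sex. Over the fits that left out 1 library, the sign also changed for Eif4ebp1 in time (-0.025 to 0.013, above 0 in 21 fits), Fbxo30 in exercise (-0.0084 to 0.042, below 0 in 3), Fbxo32 in time (-0.0066 to 0.093, below 0 without mouse 37) and Foxo3 in genotype (-0.034 to 0.020, above 0 in 9). No paired analysis was made, since the labels used here name no pairs of mice.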
